A study of Homo sapiens with 12 samples.

Results

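The genes examined here belong to the amino acid response, which is run by the transcription factor ATF4, and to the unfolded protein response of the endoplasmic reticulum. They were listed by name and role, and all 37 were found among the 22963 gene names of the deposited expression list. The ATF4 arm has 20 genes, made up of 6 regulators, 8 enzymes of amino acid and folate metabolism, 5 amino acid transporters and the lipoprotein receptor VLDLR. The chaperone arm has 17 genes, made up of 6 genes of the HSP70 and HSP90 system, 3 genes of protein degradation, the transcription factor XBP1, 5 genes for lectin chaperones and disulfide isomerases and 2 genes for secreted stress proteins.

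EGR1, a zinc finger transcription factor that is induced early by growth signals and stress, was varied in hepatocellular carcinoma (HCC) cell lines to learn how it acts on tumour cell growth and metabolism. RNA was sequenced from 12 libraries, 3 in each of 4 groups. The first pair of groups was PLC/PRF5 cells with the empty vector (genotype WT) and PLC/PRF5 cells with EGR1 overexpression, which carried the EGR1 coding sequence in a pCDH plasmid behind a CMV promoter. The other pair was MHCC97H cells, either parental (genotype WT, described as mock) or labelled EGR1 knockout. The knockout lines were made with a lentiviral CRISPR/Cas9 vector and grown from single clones, without a statement of which clone was sequenced. Their control is labelled parental, so an effect of cloning or of the vector cannot be told apart from that of the edit. The paper describes the same serum-containing medium for its cell lines. It names no stress agent or drug selection for the sequenced cells. The labels call the replicates biological but do not say that they came from separate cultures, so that p-values measure only the spread between these libraries.

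Unfolded proteins in the endoplasmic reticulum activate the sensors PERK (EIF2AK3), IRE1 (ERN1) and ATF6. PERK, like the amino acid sensor GCN2 (EIF2AK4), phosphorylates the initiation factor eIF2, which slows translation in general but raises translation of ATF4 mRNA, and ATF4 then induces genes for amino acid synthesis, amino acid import and, under lasting stress, cell death. ATF6 and spliced XBP1 act on the other side, inducing chaperones, disulfide isomerases and the machinery that removes misfolded proteins, which hepatocytes need for their large output of plasma proteins.

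The promoters of the chaperone genes are shown because they carry the elements by which ATF6 and XBP1 are known to act, and they divide the chaperone arm below. RefSeq promoter sequences (GRCh38.p14) were available for 33 of the 37 genes, and the 250 bases before each start were searched on both strands. The endoplasmic reticulum stress element (ERSE: CCAAT, any 9 bases, then CCACG) or the shorter ERSE-II (ATTGG, any 1 base, then CCACG) was present in 9 of 16 chaperone promoters and in 0 of 17 promoters of the ATF4 arm, against 0.132% of 27305 promoters of the same length and 0.249% of the 9646 promoters of genes tested here. The list of chaperone genes was itself drawn from what is known of these factors. The windows below hold 70 bases each, written 5′ to 3′ on the strand of the gene, with the letters of the element that are fixed in capitals and in the reverse complement (CGTGG before ATTGG, or CGTGG before CCAAT in ERSE-II) where the match was on the other strand. HSP90B1 and HYOU1 had 2 matches each, of which 1 is marked.
HSPA5 (chr9:125241366-125241435, minus strand, ERSE): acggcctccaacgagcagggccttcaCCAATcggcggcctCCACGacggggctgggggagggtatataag
HSP90B1 (chr12:103930295-103930364, plus strand, ERSE): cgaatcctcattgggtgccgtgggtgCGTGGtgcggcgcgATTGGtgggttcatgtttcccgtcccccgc
XBP1 (chr22:28800578-28800647, minus strand, ERSE): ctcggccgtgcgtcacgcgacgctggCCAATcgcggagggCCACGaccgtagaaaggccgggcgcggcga
CALR (chr19:12938359-12938428, plus strand, ERSE): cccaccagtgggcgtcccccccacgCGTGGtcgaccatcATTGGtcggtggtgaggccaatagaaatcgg
CANX (chr5:179698752-179698821, plus strand, ERSE): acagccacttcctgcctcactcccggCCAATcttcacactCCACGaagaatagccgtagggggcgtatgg
CRELD2 (chr22:49918528-49918597, plus strand, ERSE): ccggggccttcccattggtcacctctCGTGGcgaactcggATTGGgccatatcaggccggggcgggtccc
SDF2L1 (chr22:21642084-21642153, plus strand, ERSE-II): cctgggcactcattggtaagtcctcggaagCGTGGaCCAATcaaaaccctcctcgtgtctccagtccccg
HERPUD1 (chr16:56931995-56932064, plus strand, ERSE-II): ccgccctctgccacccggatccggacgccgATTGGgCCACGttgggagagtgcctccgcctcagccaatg
HYOU1 (chr11:119057245-119057314, minus strand, ERSE-II): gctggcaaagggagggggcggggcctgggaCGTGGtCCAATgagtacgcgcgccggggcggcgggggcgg

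The ATF4 binding element is the CARE site, searched as TGATGNAA. It was found in 2 of 17 promoters of the ATF4 arm, ASNS and CHAC1, and in 1 of 16 chaperone promoters, that of HERPUD1, against 3.19% of all promoters and 1.28% of those of genes tested. Those of ASNS and CHAC1 are printed because both genes changed in the 2 cell lines, with the fixed letters in capitals.
ASNS (chr7:97872438-97872507, minus strand): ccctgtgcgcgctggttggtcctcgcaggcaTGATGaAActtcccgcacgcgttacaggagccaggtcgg
CHAC1 (chr15:40953231-40953300, plus strand): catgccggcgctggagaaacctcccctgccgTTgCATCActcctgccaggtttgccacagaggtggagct
The EGR1 site GCGNGGGCG was found in the promoters of SLC7A5, HERPUD1 and HYOU1, against 8.25% of all promoters and 14% of those of genes tested. The core CCACG, which lies within ERSE and ERSE-II, was found in 15 of 16 chaperone promoters, 9 of 17 of the ATF4 arm, 33.3% of all promoters and 44.7% of those of genes tested.

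The deposited values are FPKM (fragments counted per length of transcript and scaled to the size of the library). They hold no read numbers, and the depth is unknown. Library sums of FPKM lay between 376335 and 437652, and the 37 genes took 0.648% to 0.998% of it. EGR1 itself had an FPKM of 1.97, 1.43 and 2.03 in the vector libraries and of 56.3, 50.2 and 52.2 with overexpression. In MHCC97H cells EGR1 had an FPKM of 20.2, 23.1 and 21.2 in parental libraries and of 35.2, 50.3 and 32.9 in those labelled EGR1 knockout, where the mRNA was higher (log2 fold change 0.83, adjusted p = 0.00126, limma, and 0.45, adjusted p = 0.0484, once the trend of fold changes with transcript GC content and length was removed). The mRNA level goes against the label, but FPKM do not read the edited sequence or the protein. The paper reports that its knockout clones were checked by western blot and by sequencing of DNA. The group is therefore called by its label throughout. Of 11 liver epithelial markers, 9 had a mean FPKM of at least 1 in each PLC/PRF5 group, but only 4 in parental MHCC97H libraries and 5 in those labelled knockout, with ALB under 1 in the parental group and GPC3 listed at 0 in both. Their summed FPKM was 3920 to 4191 with the vector and 4728 to 5972 with EGR1, and 1457 to 1840 in parental libraries and 2231 to 2663 in those labelled knockout. Of 8 stromal and blood cell markers, 2 reached that level in each group. The summed FPKM of the 8 was 31.9 to 42 in PLC/PRF5 libraries, 31.6 to 34.9 in parental libraries and 57.1 to 62.7 in those labelled knockout. CD68 made up most of it, with means of 37.6 (vector), 35.6 (EGR1), 28.5 (parental) and 53.8 (labelled knockout). Most of the liver sum in MHCC97H cells came from KRT8 (means 1102 parental and 1775 labelled knockout) and KRT18 (517 and 635). The part of either marker list in the results was not tested.

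With EGR1 overexpression in PLC/PRF5 cells, the chaperone arm moved downwards while the ATF4 arm split. Of 17 chaperone genes tested, 8 fell and 0 rose, with a median log2 fold change of -0.34. Of 20 genes of the ATF4 arm, 4 rose, 6 fell and 10 did not pass, with a median of -0.13. Across the 11671 genes tested, 29.6% passed an adjusted p under 0.05 (limma on log2(FPKM + 1)), 19.2% higher and 10.4% lower, and the median was 0.09. A fold change on this scale understates the change of genes with a low FPKM.

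**Figure D1:**
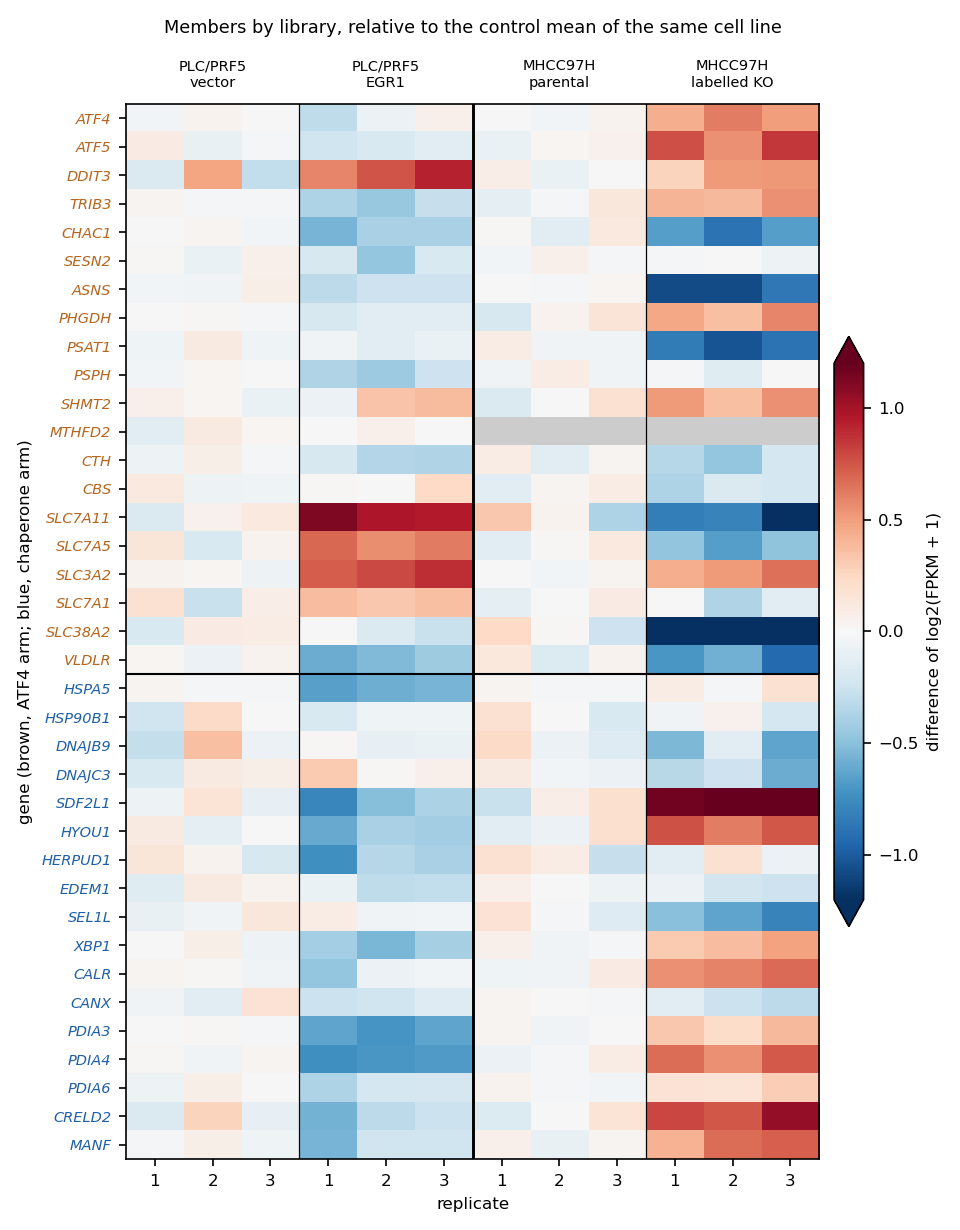
Each row is a gene and each column a library (replicates 1 to 3 of the 4 groups); the colour gives log2(FPKM + 1) minus the mean of the control group of the same cell line, and grey marks MTHFD2, listed at 0 in MHCC97H cells. In PLC/PRF5 cells with EGR1 overexpression most chaperone genes are blue and SLC7A11, SLC7A5, SLC3A2 and DDIT3 are red, while in the libraries labelled EGR1 knockout both arms hold red and blue rows.

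HSPA5, which encodes BiP, the main HSP70 chaperone of the endoplasmic reticulum, had an FPKM of 202, 194 and 196 in the vector libraries and of 125, 131 and 134 with EGR1 overexpression. The groups did not overlap, and the level with EGR1 was 65.7% of that with the vector (log2 fold change -0.60 ± 0.08 (SE), adjusted p = 0.00155). PDIA4, a disulfide isomerase that helps secreted proteins to form their disulfide bonds (chr7:149003062-149028641, minus strand), stood at 120, 115 and 121 with the vector and at 71, 72.7 and 73.7 with EGR1. This was the largest fall of the arm, at -0.70 ± 0.08 (adjusted p = 5.80e-04). PDIA3, the isomerase that works with calnexin and calreticulin on glycoproteins, stood at 225, 226 and 222 against 144, 137 and 144. It fell by 0.66 on the log2 scale (SE 0.08, adjusted p = 9.51e-04), again with no overlap.

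SDF2L1, a partner of BiP, had an FPKM of 80.7, 94.3 and 78.6 with the vector and of 48.4, 58.8 and 64.4 with EGR1 (-0.56 ± 0.12, adjusted p = 0.0103). HYOU1, a large HSP70 that exchanges the nucleotide of BiP, stood at 154, 133 and 143 against 94, 109 and 107 (-0.47 ± 0.10, adjusted p = 0.0089). XBP1, whose spliced mRNA encodes the active factor, stood at 253, 265 and 242 against 190, 173 and 192 (-0.45 ± 0.09, adjusted p = 0.00722). The vector libraries lay above the EGR1 libraries for all of these genes, and the FPKM of XBP1 counts spliced and unspliced mRNA together. HERPUD1, which assembles the degradation complex, went from 31.1, 29 and 24.5 to 16.5, 21.9 and 21.2 (-0.49 ± 0.13, adjusted p = 0.0226). MANF, a secreted factor that binds BiP, went from 31, 33.1 and 30.3 to 21.1, 26.5 and 26.5 (-0.34 ± 0.11, adjusted p = 0.038).

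Of the other 9 chaperone genes, none passed the test, although PDIA6, CRELD2 and CANX also showed no overlap between groups, which made 11 genes of the arm lower without overlap against 17.3% of all genes lower and 47.7% in either direction. Their log2 fold changes were -0.26 for PDIA6 (adjusted p = 0.0644), -0.38 for CRELD2 (0.0607) and -0.22 for CANX (0.154). HSP90B1, the endoplasmic reticulum HSP90, had overlapping groups at 231, 321 and 274 against 241, 263 and 263. CALR, the soluble lectin chaperone, spanned 325 to 439 with EGR1 and 435 to 458 with the vector. DNAJB9 and DNAJC3, co-chaperones of BiP, and EDEM1 and SEL1L, which act in the removal of misfolded proteins, had values between -0.23 and 0.13 with overlapping groups. HSPA5, SDF2L1, XBP1, PDIA3, PDIA4 and HYOU1 passed in all 6 fits that left out 1 library, HERPUD1 did not pass without vector replicate 1 (adjusted p = 0.0737), and MANF passed in none of the 6 (adjusted p 0.0558 to 0.081).

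Within the ATF4 arm 3 of 5 transporters rose and 0 fell, while 0 of 8 enzymes rose and 3 fell, against 19.2% of all genes higher and 10.4% lower. The difference between these groups was not tested. CHAC1, which acts on glutathione, was listed with the regulators and is not counted among the enzymes. SLC3A2, the heavy chain that carries both SLC7A5 and SLC7A11 to the cell surface (chr11:62856102-62888875, plus strand), had an FPKM of 182, 180 and 170 with the vector and of 294, 307 and 328 with EGR1. It rose 1.75-fold with no overlap (log2 fold change 0.80 ± 0.09, adjusted p = 5.92e-04). Its light chain for leucine and other large amino acids, SLC7A5, went from 145, 115 and 135 to 212, 193 and 203 (0.63 ± 0.10, adjusted p = 0.00363). Its light chain for cystine import, SLC7A11 (chr4:138164097-138242349, minus strand), went from 1.44, 1.86 and 1.99 to 4.98, 4.41 and 4.33, a 2.6-fold rise at a low level (1.02 ± 0.11, adjusted p = 5.92e-04). The arginine transporter SLC7A1 was also higher without overlap, at 22.6, 21.8 and 22.5 against 19.7, 14.2 and 18.3, but did not pass (0.35 ± 0.12, adjusted p = 0.0511). SLC38A2, the neutral amino acid transporter, had overlapping groups of 166 to 201 and 176 to 214. Thus 4 of 5 transporters were higher without overlap, against 30.4% of all genes.

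The enzymes that fell were ASNS, PSPH and CTH, and none of these calls stood without EGR1 replicate 2. ASNS, which makes asparagine, had an FPKM of 55.1, 54.7 and 59.1 with the vector and of 45, 47.1 and 47.2 with EGR1 (-0.27 ± 0.08, adjusted p = 0.0312). PSPH, the last enzyme of serine synthesis, went from 31.2, 32.6 and 32.2 to 24.7, 23.4 and 26.8 (-0.35 ± 0.08, adjusted p = 0.0156). CTH, which makes cysteine from cystathionine, went from 10.1, 11.2 and 10.5 to 9.15, 8.11 and 8.01 (-0.30 ± 0.09, adjusted p = 0.0385). These falls were small, and each enzyme was at 78% or more of its vector level. PHGDH, the first enzyme of serine synthesis, was at 90% of the vector level without passing (adjusted p = 0.165). PSAT1, SHMT2, MTHFD2 and CBS had overlapping groups, with log2 fold changes of -0.08, 0.22, 0.02 and 0.08. CBS has a near-identical copy, CBSL, listed beside it at a mean FPKM of 41.5 with the vector and 34.2 with EGR1, so its reads may be divided between both names.

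Among the regulators ATF4 mRNA did not pass, at 296, 310 and 300 with the vector and 245, 287 and 314 with EGR1 (-0.11 ± 0.11, adjusted p = 0.483). DDIT3, which encodes the stress-induced death factor CHOP, went from 6.1, 10.1 and 5.53 to 11, 12.5 and 14.2 (0.75 ± 0.19, adjusted p = 0.0182). Its neighbours MARS and MBD6 overlap it on the other strand, and whether the counting used strand is not given. CHAC1, which breaks down glutathione, went from 31, 32 and 30.5 to 20.8, 23.5 and 23.6 (-0.45 ± 0.08, adjusted p = 0.00591), and TRIB3, a pseudokinase that feeds back on ATF4, from 33.9, 32.8 and 32.6 to 25.3, 23.8 and 27.1 (-0.37 ± 0.08, adjusted p = 0.0116). DDIT3 thus rose while CHAC1 and TRIB3 fell. ATF5 and SESN2 were lower without overlap but did not pass (adjusted p = 0.127 and 0.0748). VLDLR, a lipoprotein receptor that ATF4 induces, fell from 2.81, 2.56 and 2.86 to 1.47, 1.59 and 1.78 (-0.52 ± 0.10, adjusted p = 0.00614).

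Of the 10 calls of the ATF4 arm, those of CHAC1, SLC7A11, SLC7A5, SLC3A2 and VLDLR stood in all 6 fits that left out 1 library. DDIT3 and ASNS did not pass in 4 of these fits (adjusted p 0.0535 to 0.0659 and 0.0676 to 0.123), CTH in 5 (0.0561 to 0.138), PSPH in 2 (0.0587 to 0.0764) and TRIB3 in 1, without EGR1 replicate 2 (0.0612). The arm then had as few as 5 calls, without EGR1 replicate 2, and 6 without vector replicate 3. The share of all genes that passed in these fits was not computed. With a change of at least 2-fold required beside the adjusted p, SLC7A11 was the only one of the 37 genes left, against 1.77% of all genes.

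**Figure D2:**
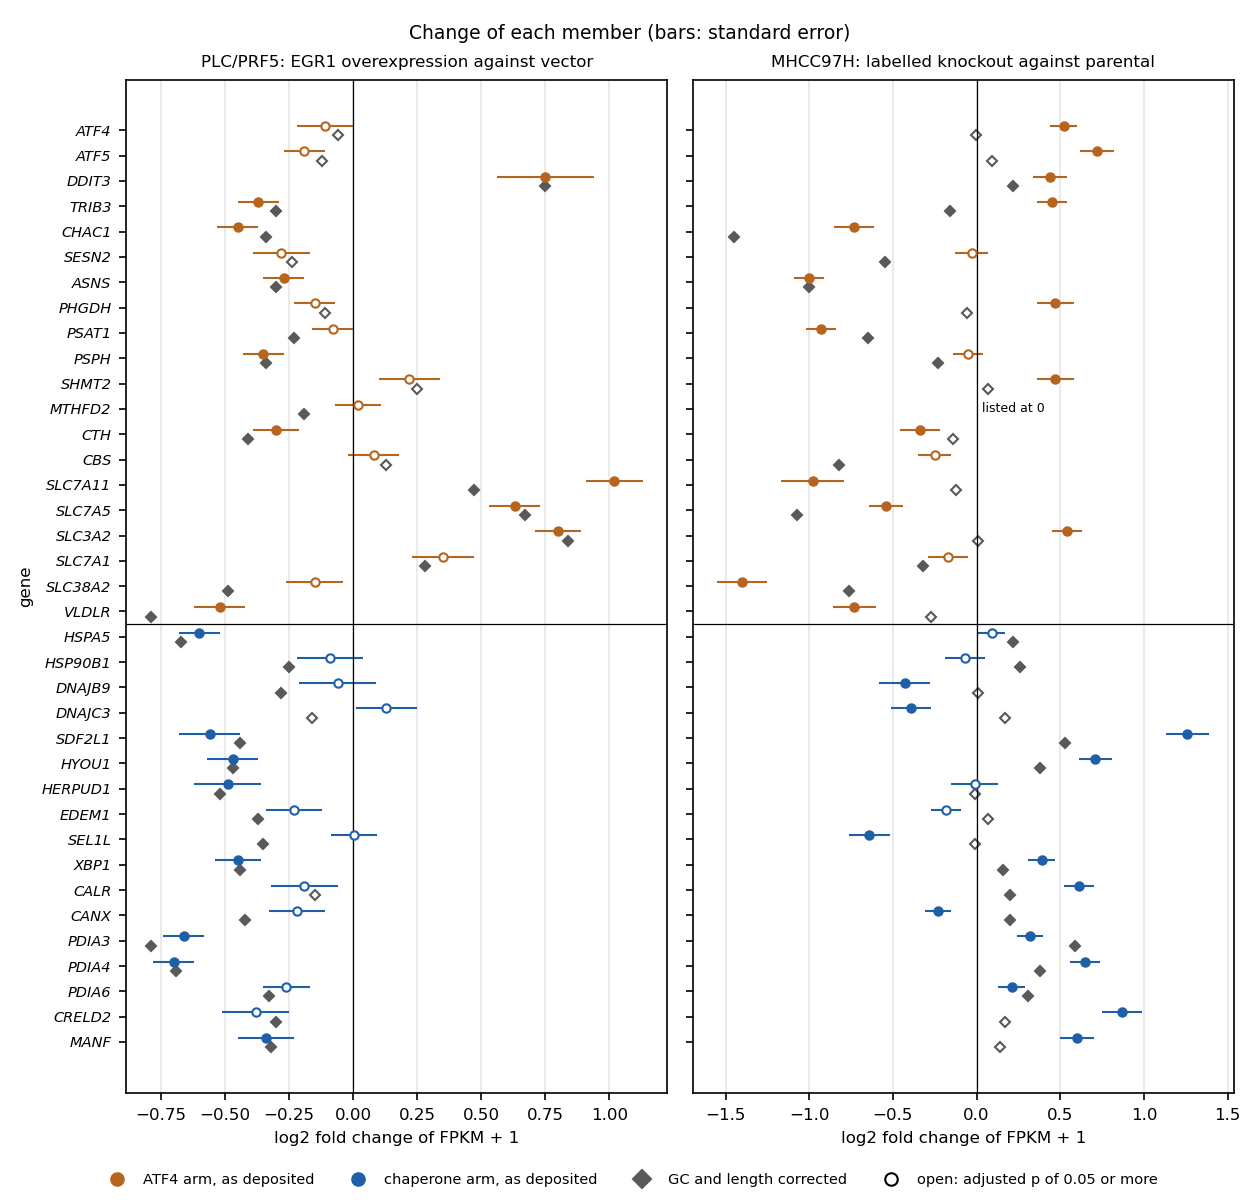
Log2 fold change of FPKM + 1 (x axis) of each gene (y axis) with EGR1 overexpression in PLC/PRF5 cells and in MHCC97H libraries labelled EGR1 knockout; circles with standard error bars are the deposited values, diamonds the values after the GC and length correction, and open symbols have an adjusted p of 0.05 or more. On the left all filled chaperone symbols lie below 0, and on the right the corrected values of the chaperone arm that passed lie above 0 while those of the ATF4 arm, apart from DDIT3, lie below it.

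Fold changes followed the GC content of transcripts in both cell lines, in opposite directions. Spearman's rho across genes, which are not independent, was -0.45 in PLC/PRF5 cells and 0.77 in MHCC97H cells. All values were therefore also computed after a smooth trend on transcript GC content and length was removed from each library, which takes away any biological change that follows GC content along with a technical one. After this correction the chaperone arm had 15 genes lower and 0 higher with EGR1 overexpression (median -0.37), against 34.7% of all genes called, 16.8% higher and 17.9% lower. HSP90B1 (-0.25), DNAJB9 (-0.28), EDEM1 (-0.37), SEL1L (-0.35), CANX (-0.42), PDIA6 (-0.33) and CRELD2 (-0.30) passed in addition, and CALR and DNAJC3 did not. In the ATF4 arm 5 genes were then higher and 9 lower, with SLC7A1 added above and PSAT1, MTHFD2 and SLC38A2 below. SLC7A11, whose transcript has a GC content of 35.4%, kept a rise of 0.47 (adjusted p = 0.00275).

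**Figure D3:**
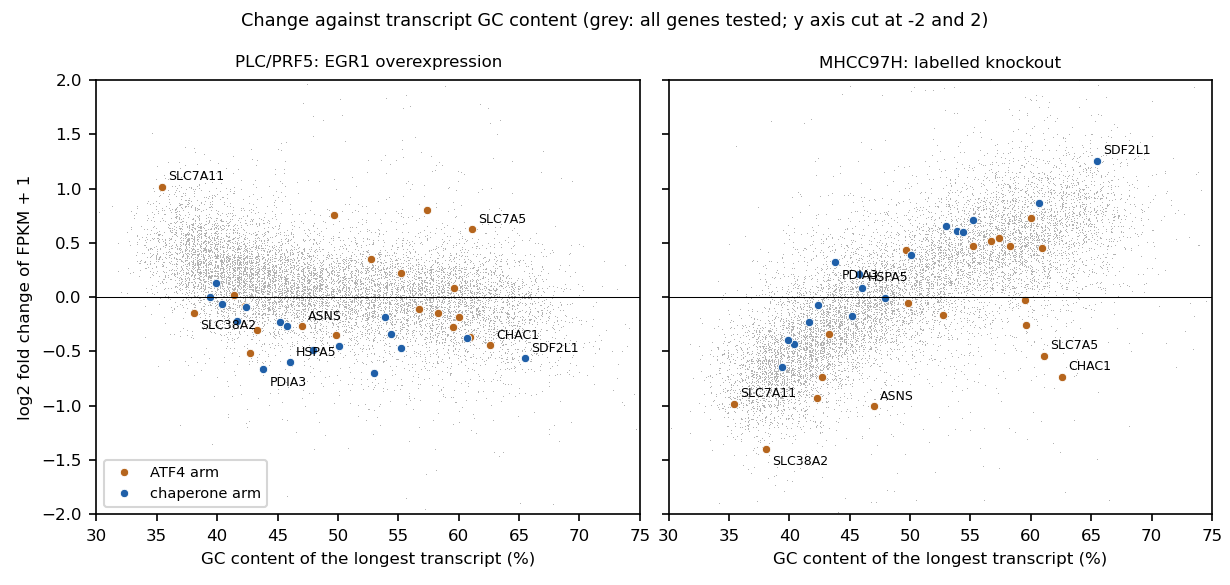
GC content of the longest transcript (x axis, %) against the log2 fold change of FPKM + 1 (y axis) for all genes tested (grey) and for the genes of both arms, in PLC/PRF5 cells with EGR1 overexpression and in MHCC97H libraries labelled EGR1 knockout. The grey cloud falls to the right in PLC/PRF5 cells and rises more steeply in MHCC97H cells. There SDF2L1 lies at the upper right with the cloud, and CHAC1, SLC7A5 and ASNS lie below it.

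In the MHCC97H libraries labelled EGR1 knockout, the arms had a different pattern. As deposited, 9 of 17 chaperone genes were higher and 4 lower (median 0.21), and 7 of 19 tested genes of the ATF4 arm were higher and 8 lower (median -0.17), where 66.3% of all 11577 genes passed, 34.8% higher and 31.5% lower (median 0.02). Among members with a transcript GC content above the median of all genes (48.7%), 14 of 20 were higher and 2 lower, and among the others 2 of 16 were higher and 10 lower. Fold changes of all genes followed GC content in the same direction (Spearman's rho 0.77). The shares of all genes above and below that median were not computed, so the split is not read as particular to the members. After the GC and length correction 10 chaperone genes were higher and 0 lower (median 0.20), while 10 genes of the ATF4 arm were lower and 1 higher (median -0.23), against 46.7% of all genes called, 24.3% higher and 22.4% lower. Groups without overlap were found for 9 chaperone genes above and 4 below and for 7 and 9 genes of the ATF4 arm, against 71.8% of all genes, 38.3% above and 33.6% below. With a change of at least 2-fold required, SDF2L1, ASNS and SLC38A2 were left, against 8.89% of all genes.

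Other scalings moved the chaperone arm of this comparison. With every library set to the same FPKM total, which shifted the median of all genes by -0.13, the median of the chaperone arm was 0.06 with 7 genes higher and 5 lower, against 65.5% of all genes called, 27.2% higher and 38.4% lower. After quantile normalization it turned to -0.01 with 6 higher and 7 lower, against 65.6% of all genes, 32.9% higher and 32.6% lower. For the ATF4 arm the splits were 7 higher and 9 lower (median -0.31) and 3 higher and 7 lower (median -0.20).

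SDF2L1 was raised most, from 14.5, 18.7 and 20.4 in parental libraries to 40.7, 42.4 and 48.4 in those labelled knockout, 2.45-fold with no overlap (1.26 ± 0.13, adjusted p = 7.51e-05). Its transcript has a GC content of 65.5%, and the corrected change was 0.53 (adjusted p = 5.66e-04). HYOU1 stood at 34.5, 35.9 and 43.1 against 64.6, 58 and 63.9 (0.71 ± 0.10, corrected 0.38, adjusted p = 0.00197). PDIA4 stood at 83.8, 87.1 and 93.6 against 141, 129 and 147 (0.65 ± 0.09, corrected 0.38, adjusted p = 7.70e-04). For these 3 genes, each of which fell with EGR1 overexpression, both kinds of value passed.

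PDIA3 rose less as deposited, from 105, 99.8 and 103 to 129, 120 and 135 (0.32 ± 0.08, adjusted p = 0.0076), and more after the correction (0.59, adjusted p = 7.21e-04). Its transcript has a GC content of 43.8%. It turned to -0.01 after quantile normalization. XBP1 went from 98.4, 91.4 and 92.3 to 117, 122 and 132 (0.39 ± 0.08, corrected 0.16, adjusted p = 0.0432), and CALR from 197, 199 and 219 to 300, 310 and 329 (0.61 ± 0.09, corrected 0.20, adjusted p = 0.00967). CRELD2, a secreted protein of the stressed endoplasmic reticulum, rose from 9.01, 10.2 and 11.6 to 18.6, 17.8 and 22.3 (0.87 ± 0.12), but not after the correction (0.17, adjusted p = 0.0682), and MANF likewise went from 0.60 ± 0.10 to 0.14 (adjusted p = 0.186). PDIA6 rose by 0.21 ± 0.08 as deposited and by 0.31 after the correction, but turned to -0.12 after quantile normalization.

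HSPA5 itself had overlapping groups, at 187, 181 and 180 against 194, 181 and 208 (0.09 ± 0.08, adjusted p = 0.391), with 0.22 after the correction (adjusted p = 0.028) and -0.20 after quantile normalization. HSP90B1 overlapped too (222 to 287 against 218 to 262), with -0.07 as deposited and 0.26 corrected (adjusted p = 0.00751). DNAJC3, SEL1L and CANX were lower without overlap and DNAJB9 lower with overlap as deposited, with log2 fold changes of -0.39, -0.64, -0.23 and -0.43. Their transcripts have a GC content of 39.4% to 41.6%, and after the correction DNAJC3, SEL1L and DNAJB9 did not pass (0.17, -0.01 and 0.01), while CANX turned to 0.20 (adjusted p = 0.0488). HERPUD1 and EDEM1 did not pass in either form. As deposited, SDF2L1, XBP1, SEL1L, CALR, PDIA3, PDIA4, CRELD2, MANF and HYOU1 passed in all 6 fits without 1 library, PDIA6 in none (adjusted p 0.0555 to 0.147), and CANX, DNAJB9 and DNAJC3 did not pass in 5, 4 and 2 of them (0.057 to 0.116, 0.0536 to 0.113 and 0.0543 to 0.0632).

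In the ATF4 arm, SLC38A2, ASNS and PSAT1 had the largest falls as deposited that also passed after the correction. SLC38A2 (chr12:46358189-46372867, minus strand) fell from 188, 161 and 134 to 64.5, 67.6 and 49.5, to 37.6% of the parental level (-1.40 ± 0.15, corrected -0.76, adjusted p = 5.79e-05). ASNS fell from 53.4, 52.5 and 54.2 to 24.8, 24.9 and 29, to 49.1% of the parental level as deposited (adjusted p = 4.57e-05), and passed after the correction with the same log2 fold change to 2 decimals (adjusted p = 3.46e-05). PSAT1, the middle enzyme of serine synthesis, fell from 130, 118 and 118 to 67.5, 58.8 and 65.3 (-0.93 ± 0.09, corrected -0.65, adjusted p = 6.80e-04). The parental and labelled knockout libraries did not overlap for any of these genes.

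CHAC1 and SLC7A5 have transcripts rich in GC (62.6% and 61.1%), and both fell by more after the correction than as deposited. CHAC1 was low, at 2.21, 1.91 and 2.46 in parental libraries and 1.02, 0.72 and 1.02 in those labelled knockout (-0.73 ± 0.12, corrected -1.45, adjusted p = 4.47e-05). SLC7A5 went from 81.6, 91.2 and 98 to 64.7, 56.5 and 64.1 (-0.54 ± 0.10, corrected -1.07, adjusted p = 6.70e-06). In contrast SLC3A2, the partner of SLC7A5, was higher as deposited, at 142, 139 and 146 against 193, 203 and 226 (0.54 ± 0.09), and did not pass after the correction (0.01, adjusted p = 0.901). SLC7A11 fell from 68.2, 56 and 41.9 to 30.2, 30.8 and 21.2 (-0.98 ± 0.19), and did not pass after the correction (-0.12, adjusted p = 0.283).

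ATF4 mRNA had an FPKM of 98.1, 96.2 and 102 in parental libraries and of 134, 152 and 140 in those labelled knockout (0.52 ± 0.08, adjusted p = 6.94e-04), and its corrected change was -0.003 (adjusted p = 0.976). ATF5 (0.72 ± 0.10), PHGDH (0.47 ± 0.11) and SHMT2 (0.47 ± 0.11) were also higher without overlap as deposited and had corrected values of 0.09, -0.06 and 0.07, none of which passed. TRIB3 changed sides, from 0.45 ± 0.09 as deposited to -0.16 (adjusted p = 0.0242). DDIT3, with a transcript GC content of 49.7%, was the gene of the arm that rose in both forms, from 21.9, 19.5 and 20.8 to 25.2, 30 and 30.2 (0.44 ± 0.10, corrected 0.22, adjusted p = 0.0367). SESN2, PSPH, SLC7A1 and CBS did not pass as deposited and were lower after the correction, at -0.55, -0.23, -0.32 and -0.82. CTH (-0.34) and VLDLR (-0.73) passed as deposited but not after the correction, and CTH did not pass in 4 of 6 fits without 1 library (adjusted p 0.0594 to 0.092). MTHFD2 was listed at 0 in all 6 MHCC97H libraries, against 30.6 to 36.2 in PLC/PRF5 libraries, and was not tested. Genes assembled by the authors under other names were not searched for its reads, and 37 gene names in all were listed at 0 in every MHCC97H library and at 10 or more in every PLC/PRF5 library.

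The cell lines share no libraries, so the calls of both EGR1 comparisons can be set side by side. As deposited, SDF2L1, XBP1, PDIA3, PDIA4, MANF and HYOU1, 6 of 17 chaperone genes, fell with EGR1 overexpression and rose in the libraries labelled knockout, against 6.25% of the 10369 genes tested in both. MANF passed in none of the 6 PLC/PRF5 fits that left out 1 library. After the GC and length correction this held for 9 chaperone genes (HSPA5, HSP90B1, SDF2L1, XBP1, CANX, PDIA3, PDIA4, PDIA6 and HYOU1), against 6.06% of all genes. In the libraries labelled knockout, HSPA5 and HSP90B1 did not pass as deposited and CANX was lower. HSPA5, PDIA3 and PDIA6 fell below 0 there after quantile normalization. HSP90B1 and CANX, which were below 0 as deposited, stayed below 0 with it. In the ATF4 arm TRIB3 alone showed that pattern as deposited, and no gene of the arm did after the correction. There 4 genes (CHAC1, ASNS, CTH and VLDLR) were lower in both comparisons as deposited, against 0.984% of all genes, and 6 (TRIB3, CHAC1, ASNS, PSAT1, PSPH and SLC38A2) after the correction, against 2.98%. DDIT3 and SLC3A2 were higher in both as deposited (2.55% of all genes), and DDIT3 after the correction (2.92%). SLC7A11 and SLC7A5 were higher with overexpression and lower in the libraries labelled knockout (11.7%), as were SLC7A5 and SLC7A1 after the correction (5.7%). ASNS and CHAC1, whose promoters were printed because both genes changed, were thus lower in both comparisons in both forms. Genes without a CARE site in the window were lower in both as well. These were CTH and VLDLR as deposited, and TRIB3, PSAT1 and SLC38A2 after the correction. HERPUD1, which has the site, fell only with EGR1 overexpression, and a part of the site in these changes was not tested. The libraries labelled knockout held more EGR1 mRNA than their controls, as did the overexpression libraries. The direction of EGR1 mRNA was thus the same in both comparisons, while EGR1 protein is not read by these values.

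**Figure D4:**
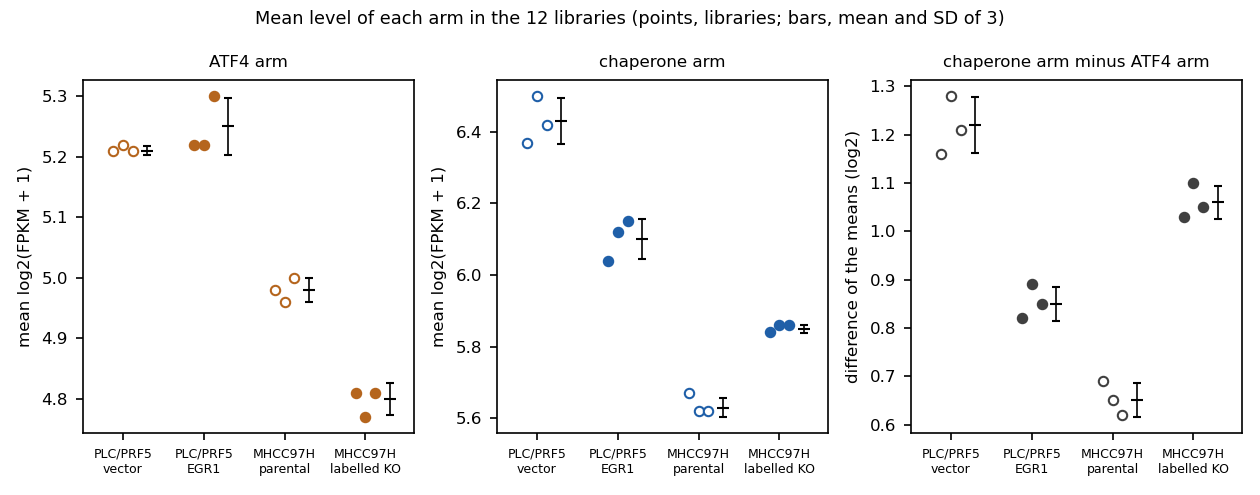
Mean log2(FPKM + 1) over the genes of each arm that were above 0 in all libraries (19 and 17 genes), and the difference of the means, in each of the 12 libraries; points are libraries and bars the mean and SD of 3. The difference is lower with EGR1 overexpression than with the vector, and higher in the libraries labelled knockout than in parental ones, with no overlap in either cell line.

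The balance of the arms was followed in single libraries as the mean log2(FPKM + 1) of 17 chaperone genes minus that of 19 genes of the ATF4 arm. It was 1.16, 1.28 and 1.21 in the vector libraries and 0.82, 0.89 and 0.85 with EGR1 overexpression. In MHCC97H cells it was 0.69, 0.65 and 0.62 in parental libraries and 1.03, 1.10 and 1.05 in those labelled knockout. In PLC/PRF5 cells the difference came from the chaperone arm, whose mean went from 6.43 ± 0.064 to 6.10 ± 0.056 (SD, n = 3), while that of the ATF4 arm was 5.21 ± 0.008 and 5.25 ± 0.047. In MHCC97H cells both arms moved as deposited, the chaperone arm from 5.63 ± 0.027 to 5.85 ± 0.012 and the ATF4 arm from 4.98 ± 0.02 to 4.80 ± 0.027. The rise of the chaperone arm depended on the scaling, as given above. Its share of the FPKM total overlapped, at 0.387% to 0.41% in parental libraries and 0.405% to 0.427% in those labelled knockout. That of the ATF4 arm did not, at 0.276% to 0.283% and 0.24% to 0.25%. All of these are descriptions without a test, and they were not corrected for GC content.

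The chaperone genes with an ERSE or ERSE-II in the promoter, printed above, were compared with the 7 chaperone promoters without one (DNAJB9, DNAJC3, EDEM1, SEL1L, PDIA4, PDIA6 and MANF). With EGR1 overexpression 5 of 9 genes with an element fell (median -0.45) and 2 of 7 without one (median -0.23), against 10.4% of all genes lower. After the GC and length correction these were 8 of 9 and 6 of 7, against 17.9%, and the medians lay closer together (-0.44 and -0.33). In the libraries labelled knockout 5 of 9 with an element were higher and 1 lower (median 0.39), and 3 of 7 without one were higher and 3 lower (median -0.18), against 34.8% of all genes higher and 31.5% lower. After the correction 7 of 9 and 2 of 7 were higher, against 24.3% of all genes, and none in either set was lower. The corrected medians were 0.20 with an element and 0.14 without one, so most of the gap between the deposited medians was gone. The difference between the sets was not tested, and PDIA4, which has neither element in its window, had the largest fall of the arm with EGR1 overexpression.

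Further genes of the same pathways were read from lists that were chosen with earlier results of these data known. Of 10 stress sensors and eIF2 regulators, 1 rose and 1 fell with EGR1 overexpression, against 19.2% of all genes higher and 10.4% lower. The one that rose was PPP1R15A, the phosphatase subunit that reverses eIF2 phosphorylation, from 18.3, 19.4 and 17.6 to 24.8, 30.5 and 29.3 (0.58 ± 0.10, adjusted p = 0.00385). The sensor genes EIF2AK3, ERN1 and ATF6 did not pass there, with log2 fold changes of -0.02, 0.26 and -0.01, although ATF6 was lower after the correction (-0.29, adjusted p = 0.0192). In the libraries labelled knockout 2 of 10 were higher and 4 lower as deposited, against 34.8% and 31.5% of all genes, and 2 higher and 1 lower after the correction, against 24.3% and 22.4%.

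Of 29 other tested genes for chaperones and endoplasmic reticulum degradation, 1 rose and 8 fell with EGR1 overexpression (median -0.12), against 19.2% and 10.4% of all genes, and 12 fell after the correction, against 17.9%. KDELR3, a receptor that returns chaperones to the endoplasmic reticulum, was the gene that rose, from 5.79, 6.26 and 6.38 to 12.8, 14.3 and 14.1 (1.04 ± 0.09, adjusted p = 1.74e-04). ERO1A, the oxidase that recharges the disulfide isomerases, fell from 49.7, 62 and 58.4 to 34.8, 35.3 and 34.1 (-0.69 ± 0.10, adjusted p = 0.00185), and WFS1, a membrane protein of the endoplasmic reticulum, fell by 0.61 (SE 0.09, adjusted p = 0.00205). In the libraries labelled knockout 17 of 28 were higher and 8 lower, against 34.8% and 31.5% of all genes, and 16 higher and 2 lower after the correction, against 24.3% and 22.4%. FKBP2, a prolyl isomerase of the endoplasmic reticulum, was raised most there, from 1.21, 1.32 and 4.69 to 22.2, 22.1 and 23.1 (2.93 ± 0.31, corrected 2.19, adjusted p = 4.94e-04). ERO1A fell in these libraries as well, to 13.5, 11.6 and 11 from 25.3, 23.4 and 19.8 (-0.87 ± 0.12, corrected -0.25, adjusted p = 0.0478), and so was lower in both cell lines.

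Of 23 other tested ATF4 targets, 2 rose and 4 fell with EGR1 overexpression (median 0.0016), against 19.2% and 10.4% of all genes. DDIT4, an inhibitor of mTORC1, fell most, from 151, 157 and 154 to 40.9, 53.1 and 57.3, to 32.7% of the vector level (-1.61 ± 0.12, adjusted p = 9.13e-05). CLGN, a lectin chaperone related to calnexin, had the largest rise, 0.58 ± 0.19 (adjusted p = 0.046), and did not pass after the correction (adjusted p = 0.0574). In the libraries labelled knockout 8 of 22 were higher and 8 lower as deposited, near the 34.8% and 31.5% of all genes. After the correction 4 were higher and 12 lower, against 24.3% and 22.4%. NUPR1, a stress-induced chromatin protein, rose from 3.97, 5.78 and 5.74 to 21.5, 21.5 and 23.4 (1.92 ± 0.13, corrected 1.86, adjusted p = 2.72e-05). EIF4EBP1, which restrains translation, rose by 1.18 ± 0.12 (corrected 0.42, adjusted p = 0.00135). ALDH1L2, a mitochondrial folate enzyme, and the glutamine transporter SLC38A1 fell by 1.15 and 0.87 on the log2 scale, and their corrected values of -0.67 (adjusted p = 4.18e-04) and -0.34 (adjusted p = 0.0117) passed as well.

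The control groups of the cell lines, parental MHCC97H and PLC/PRF5 with the vector, differed much more than the groups within a line. This comparison uses the control libraries of the other comparisons, and the cell line cannot be told apart from the vector or from any batch. The chaperone arm was lower in MHCC97H cells for 13 of 17 genes and higher for 1 (median -1.13), and the ATF4 arm was lower for 12 of 19 and higher for 6 (median -0.40), where 79.8% of 12046 genes passed, 38.8% higher and 40.9% lower. After the GC and length correction the counts were 15 lower and 1 higher, and 10 lower and 6 higher, where 81.5% of all genes passed, 39.4% higher and 42.1% lower. SLC3A2 was lower as deposited (-0.32) and higher after the correction (0.15, adjusted p = 0.0225). SLC38A2 and DNAJB9, both lower, did not pass in 4 of 6 fits without 1 library (adjusted p 0.0946 to 0.148 and 0.0552 to 0.105). At least 2-fold differences were left for 7 of 19 genes of the ATF4 arm and 10 of 17 of the chaperone arm, against 36.8% of all genes.

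EDEM1, which targets misfolded glycoproteins for degradation, was the chaperone gene that was higher in MHCC97H cells, at 78.3, 74.7 and 72 against 11.5, 13.9 and 13.3, or 5.81-fold (2.45 ± 0.09, adjusted p = 3.57e-08). SDF2L1 (17.9 ± 3.01 against 84.5 ± 8.51), HYOU1 (37.8 ± 4.6 against 143 ± 10.8) and PDIA6 (102 ± 2.69 against 317 ± 14.3) were lower in MHCC97H cells with no overlap (SD, n = 3). HSPA5 and HSP90B1 stood at 183 ± 3.53 against 197 ± 4.16 and 255 ± 32.3 against 275 ± 44.6. Neither passed as deposited, and after the correction both were lower in MHCC97H cells (-0.30, adjusted p = 2.99e-04, and -0.35, adjusted p = 0.0013).

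In the ATF4 arm SLC7A11 was 31.5-fold higher in MHCC97H cells, at 55.4 ± 13.2 against 1.76 ± 0.287 (log2 fold change 4.33 ± 0.17, adjusted p = 5.31e-08). TRIB3 (103 ± 8.93 against 33.1 ± 0.663) and DDIT3 (20.7 ± 1.19 against 7.25 ± 2.49) were also higher. CHAC1 lay in the opposite direction, at 2.19 ± 0.275 against 31.2 ± 0.767, as did CBS at 10.2 ± 0.831 against 71 ± 5.14, and ATF4 mRNA itself at 98.7 ± 2.78 against 302 ± 7.23 (-1.61 ± 0.07, adjusted p = 7.03e-08). Genes of the arm thus differed in opposite directions between the lines, and TRIB3, DDIT3 and SLC7A11 were higher where ATF4 mRNA was lower. Levels were also put in order between genes, since FPKM are set per length, but this order was not corrected for GC content. CALR (448 ± 11.8) and CANX (414 ± 44.7) led in the vector libraries and did not differ beyond their spread. CANX (264 ± 5.54) and HSP90B1 (255 ± 32.3) led in parental MHCC97H libraries in the same way. MTHFD2, which was listed at 0 in MHCC97H cells, is given no level there and was left out. The lowest were then SLC7A11 and VLDLR (2.74 ± 0.161) in the vector libraries, and CHAC1 and CTH in parental MHCC97H libraries.

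**Figure D5:**
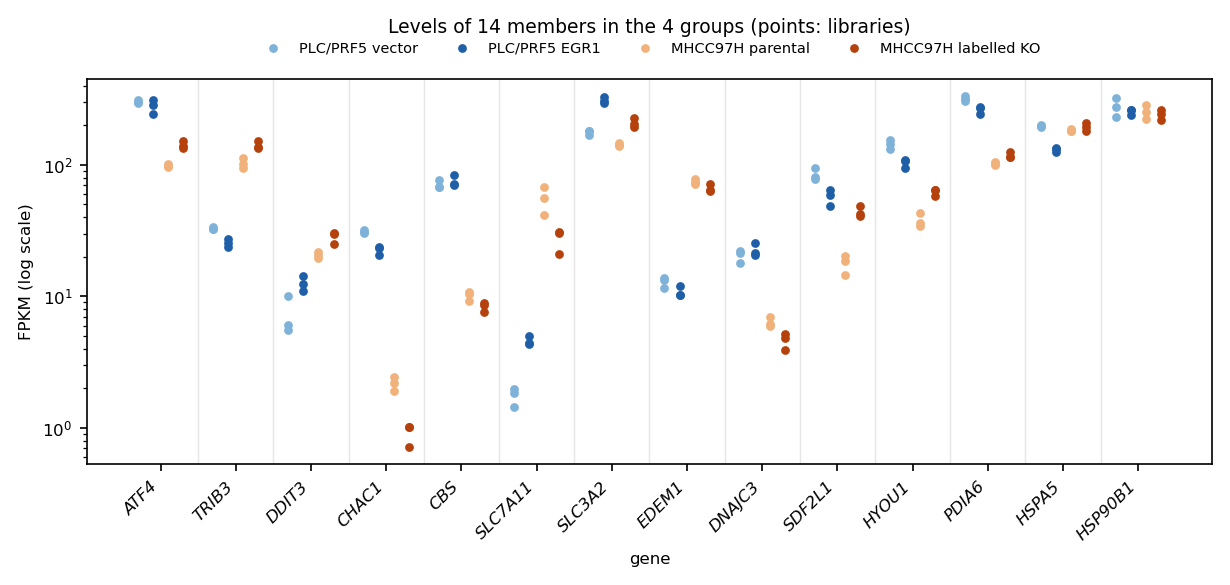
FPKM (y axis, log scale) of 14 genes of both arms (x axis) in the 12 libraries, with a point for each library coloured by group. The cell lines lie far apart for SLC7A11, CHAC1, CBS and EDEM1, while HSPA5 and HSP90B1 lie at similar levels in both control groups.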

How the data were processed

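RNA from 12 libraries was sequenced by the study. The authors deposited FPKM per gene, and their processing notes name StringTie and hg38. The aligner, the annotation and strand use are not given in the sources used here. Every column was used as deposited, and the depth is unknown, so no counting interval was given. The genes and lists were chosen with earlier results of these data known.

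Values were tested as log2(FPKM + 1) with limma 3.58.1 (R 4.3.3) with an intensity trend and no covariates, 2-sided, on genes whose FPKM averaged 1 or more over the 6 libraries compared, with Benjamini-Hochberg adjustment over all of them and a threshold of 0.05. Each comparison was fitted alone. Of the 37 genes, 37 passed this filter in PLC/PRF5 cells and 36 in MHCC97H cells. An exact permutation test of 3 against 3 libraries cannot go below p = 0.1.

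Names were matched to GENCODE 29 (19458 of 19932 names other than assembled loci), which gave coordinates on GRCh38, overlaps, GC content and length. For the GC and length correction, splines with 5 degrees of freedom on transcript GC content and log length were fitted to each library's deviation from the mean of the 6 libraries and removed. Promoters came from RefSeq (GRCh38.p14). PSPH, SHMT2, SLC7A11 and PDIA3 had no entry. Named besides the 37 genes and EGR1 were, from the 3 pathway lists, the 3 largest rises and falls past the threshold without overlap in each EGR1 comparison. EIF2AK3, ERN1 and ATF6, and the markers ALB, GPC3, CD68, KRT8 and KRT18, were named after their values were seen. Replicate numbers did not pair the libraries. The fit of the deposited values and that with the GC and length correction were tested on simulated data, and the other settings were not. With a simulated GC trend, 62.1% to 66.1% of unchanged genes passed without the correction and 0.0191% to 0.0871% with it. The strength of that trend was fixed and not taken from these data. Figures were drawn with matplotlib 3.10.9 (Python 3.11.15).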

Additional observations from a re-analysis of the deposited data

How the results depend on the processing

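Depth cannot be read from FPKM, so the error of low values such as those of CHAC1 in MHCC97H cells is known only from the spread of 3 libraries. The alternatives were another pseudocount (0.1), no filter on low FPKM, equal totals, quantile normalization, no trend, the replicate block, the GC and length correction with and without the block, and each library left out. For single genes, 1316 values stayed on the same side of 0 and of the threshold, 106 lost the call, 50 gained it and 54 changed sign, of which 24 had a call before or after the change. The causes were not tested.

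A change of at least 2-fold beside the adjusted p left 1 gene of the ATF4 arm and 0 of the chaperone arm with EGR1 overexpression (1.77% of all genes), 2 and 1 in the libraries labelled knockout (8.89%), and 7 and 10 between the control lines (36.8%). The chaperone calls with EGR1 overexpression were 15 with the GC and length correction, against 34.7% of all genes, and 14 when the block was added, for which that share was not computed. The median of the ATF4 arm with EGR1 overexpression was -0.08 with quantiles made equal. In the libraries labelled knockout it was -0.31 with equal totals, -0.20 with quantile normalization and -0.23 with the correction, with or without the block, and the chaperone median was 0.06 with equal totals and turned to -0.01 after quantile normalization. Between the control lines the ATF4 arm was at -0.29, -0.21 and -0.17 under these settings, and the chaperone arm at -1.02, -0.84 and -0.77, the last of each also with the block.

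With each library left out, calls of the ATF4 arm ranged from 5 to 11 with EGR1 overexpression, from 14 to 15 in the libraries labelled knockout and from 17 to 18 between the control lines, with medians of -0.13 to -0.09, -0.22 to -0.07 and -0.44 to -0.38. The lowest counts with EGR1 overexpression were 5 without EGR1 replicate 2 and 6 without vector replicate 3, and the median of -0.07 was found without labelled knockout replicate 2. Calls of the chaperone arm ranged from 6 to 7, from 9 to 11 and from 13 to 14, with medians of -0.4 to -0.28, 0.17 to 0.23 and -1.13 to -1.1. The shares of all genes that passed in these fits were not computed. A lower count with fewer libraries is therefore not read as particular to an arm.

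With the correction, with and without the block, the sign changed for MTHFD2 (-0.19), SEL1L (-0.35) and DNAJC3 (-0.16) with EGR1 overexpression, for ATF4 (-0.003), TRIB3 (-0.16), PHGDH (-0.06), HSP90B1 (0.26), DNAJB9 (0.01), DNAJC3 (0.17), EDEM1 (0.07) and CANX (0.20) in the libraries labelled knockout, and for SLC3A2 (0.15) and MANF (0.16) between the control lines. Equal totals changed it for MTHFD2 (-0.01) and SEL1L (-0.02) with EGR1 overexpression, HSPA5 (-0.07) in the libraries labelled knockout, and ASNS (0.03) and HSP90B1 (0.0026) between the control lines. Quantile normalization changed it for SEL1L (-0.03) with EGR1 overexpression, for SESN2 (0.04), HSPA5 (-0.20), HERPUD1 (0.0041), PDIA3 (-0.01) and PDIA6 (-0.12) in the libraries labelled knockout, and for ASNS (0.16), HSPA5 (0.10) and HSP90B1 (0.06) between the control lines.

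Leaving out 1 library changed the sign only of genes without a call. These ranged, with EGR1 overexpression, from -0.04 to 0.07 for MTHFD2 and SEL1L, from -0.21 to 0.02 for HSP90B1 and from -0.21 to 0.12 for DNAJB9. In the libraries labelled knockout they ranged from -0.04 to 0.0027 for SESN2, from -0.16 to 0.02 for HSP90B1 and from -0.15 to 0.09 for HERPUD1, and between the control lines from -0.23 to 0.01 for HSP90B1.

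Replicate numbers are shared in the labels, but same-numbered libraries did not deviate together, with correlations of -0.132, 0.136 and -0.0758 in PLC/PRF5 cells, 0.0317, 0.0302 and 0.467 in MHCC97H cells and -0.393, -0.00823 and -0.0533 between the control lines. With the replicate block alone, ASNS and CTH lost and SLC7A1 and CRELD2 gained the call with EGR1 overexpression (9 and 9 calls in the arms), CBS and EDEM1 gained it in the libraries labelled knockout (16 and 14), and SLC38A2 lost it between the control lines (17 and 14). The shares of all genes called with the block were not computed.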
